A study of Mus musculus with 10 samples.

Results

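The genes described here are the Sprr, Lce and Krtap genes of the mouse, which encode proteins of the cornified envelope of the skin and of the hair shaft. They were taken by symbol from a table of ATAC-seq signal per gene: every gene whose symbol starts with Sprr, with Lce and a digit, or with Krtap. The rule gave 93 of the 21965 genes in the table, made up of 15 Sprr, 21 Lce and 57 Krtap genes, and it used no measured value. The RefSeq annotation also holds Sprr2c-ps and Sprr2g, which were not analysed here.

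ATAC-seq uses a transposase to place sequencing adapters into open DNA, so that its signal follows the accessibility of chromatin and not the amount of RNA. The cells were mouse embryonic fibroblasts (MEFs) taken from embryos at E13.5, strain label ICR. All of them carried OG2, a transgene in which the Oct4 promoter drives GFP, and all were given mESC medium after infection with pMXs retroviruses. Of the 10 conditions, 5 were labelled as single viruses: Flag as control, Sox2, Klf4, Oct4, and Oct4-L80A, a mutant of Oct4. SKO stands for Sox2, Klf4 and Oct4 given together, and SKO+shBrg1 for SKO plus a hairpin that targets Brg1. SKO-L80A stands for the same 3 factors with the mutant as the Oct4 form. It was also given as SKO-L80A+Vc, where the medium held vitamin C (50 µg/ml), and as SKO-L80A+Ga, where Gadd45a was added. About 50000 cells went into each library.

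Each condition had 1 library and 2 columns in the table, so no difference carried a replicate error and no test was made. Both columns are given throughout, in the order of the table. The sums of the columns ranged from 112439 to 370390, and no number of reads was given. Across all genes the 2 columns of a condition had a Pearson correlation of 0.979 to 0.992 on the log2 scale, and across the 93 genes of 0.858 to 0.925, as descriptions of genes that share a library. The factor genes followed the labels with 1 exception: the library labelled Oct4 had a signal of 62.9 and 55.2 over Sox2, against 2.73 and 5.12 in Flag and 75.5 and 87.1 in the Sox2 library. It is called the library labelled Oct4 throughout. The 11 fibroblast markers, among them collagens, Thy1 and Pdgfra, summed to between 65.2 and 190 per column, with gene means of 4.98 to 22.8. The 6 basal keratinocyte markers summed to 8.69 to 32.2, the 6 markers of the upper epidermis to 8.46 to 35.3 and the 6 of the hair follicle to 7.49 to 18.9, and no marker gene had a mean of 0.

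In the outer epidermis, keratinocytes replace their plasma membrane with the cornified envelope, a shell of proteins that transglutaminases cross-link to each other. Small proline-rich (Sprr) and late cornified envelope (Lce) proteins are parts of that shell, and their genes lie together with those of loricrin, involucrin, filaggrin and the S100a proteins in the epidermal differentiation complex on chromosome 3. Keratin-associated (Krtap) proteins, rich in cysteine or in glycine and tyrosine, form the matrix around the keratin filaments of the hair shaft, and their genes lie in separate clusters. Klf4, besides its use in reprogramming, is required for the skin barrier in the mouse. Fibroblasts do not make a cornified envelope or a hair shaft.

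The promoters are shown first because they set these genes apart from most others in the table. RefSeq promoter windows (GRCm38.p6, 250 bases before to 50 after the start) were found for 85 of the 93 genes. The median GC content was 44.7% against 57.0% over the 16431 windows of all genes with an entry and 43.7% over the genes with a mean signal under 1. The median number of CpG dinucleotides was 1, against 14 and 2. Below are the 200 bases before the start of 5 genes to which the results return, each printed 5′ to 3′ on the strand of its gene, from chr3:92485882-92486081 (minus strand), chr3:92438780-92438979 (minus), chr3:92316505-92316704 (plus), chr3:92432382-92432581 (plus) and chr11:99614847-99615046 (minus). Capitals mark matches on either strand to 1 of 3 motifs. The first is the core promoter box of many tissue-specific genes, TATAAA. The next is the motif of AP-1 factors, TGANTCA, and the last is the octamer that Oct factors bind, ATGCAAAT.
Sprr1a: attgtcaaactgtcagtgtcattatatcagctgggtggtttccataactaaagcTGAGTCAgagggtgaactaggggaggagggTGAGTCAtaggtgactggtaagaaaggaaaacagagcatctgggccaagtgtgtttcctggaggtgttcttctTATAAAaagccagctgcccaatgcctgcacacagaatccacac
Sprr1b: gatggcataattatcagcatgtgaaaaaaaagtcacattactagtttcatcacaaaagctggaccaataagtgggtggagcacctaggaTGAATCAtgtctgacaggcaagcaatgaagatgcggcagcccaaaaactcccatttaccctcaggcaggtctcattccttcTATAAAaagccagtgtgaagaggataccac
Sprr2b: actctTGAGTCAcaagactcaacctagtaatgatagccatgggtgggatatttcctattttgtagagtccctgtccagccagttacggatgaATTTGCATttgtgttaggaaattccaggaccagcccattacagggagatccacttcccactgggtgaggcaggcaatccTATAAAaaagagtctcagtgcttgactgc
Sprr2k: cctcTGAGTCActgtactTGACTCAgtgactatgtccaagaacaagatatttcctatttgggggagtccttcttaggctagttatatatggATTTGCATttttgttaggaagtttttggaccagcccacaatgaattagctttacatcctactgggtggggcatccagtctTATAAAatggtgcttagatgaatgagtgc
Krtap2-4: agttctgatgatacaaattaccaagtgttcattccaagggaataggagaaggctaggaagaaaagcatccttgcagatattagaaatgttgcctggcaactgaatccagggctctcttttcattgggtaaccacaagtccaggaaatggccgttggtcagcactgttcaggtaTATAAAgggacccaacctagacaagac

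Sprr1a has AP-1 matches that begin 146 and 116 bases before the start and a TATA match at 43. Sprr2b and Sprr2k share an octamer match, on the opposite strand, at 108 and 109 bases. The 5 motifs were searched on both strands in all windows, and a match is a run of letters, not a bound site. TATAAA was present in 56 of 85 windows (65.9%), against 12.9% of all windows and 29.1% of those of genes under 1. It was present in 42 of 51 Krtap windows (82.4%), 10 of 14 Sprr windows and 4 of 20 Lce windows. TGANTCA was in 9 of 14 Sprr windows (64.3%), 10 of 51 Krtap windows and 0 of 20 Lce windows, against 7.11% of all and 12.6% of genes under 1. ATGCAAAT was in 7 Sprr windows, all of Sprr2 genes, and in no Lce or Krtap window, against 1.66% and 2.56%. The KLF motif GGGNGTGG was in 6 of 85 windows (7.06%), those of Sprr2a1, Sprr2a2 and 4 Krtap genes, against 19.7% of all and 9.15% of genes under 1. A Sox motif, CTTTGTN, was in 27.1% of the windows, against 16.6% and 25.2%. The genes under 1 are the nearer comparison in base composition.

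The signal over nearly all of these genes was low in every condition. The mean over the 20 columns had a median of 0.367 over the 93 genes, against 7.69 over all genes. It was under 1 for 81 of the 93 (87.1%), against 5572 of all genes (25.4%). For 10 more it lay between 1 and 6.92, the median over every value of the table, which is used below as the minimum signal. Krtap1-4 and Krtap1-5 exceeded that minimum, with means of 9.48 and 9.51. In a library of many cells, open DNA in few cells and little open DNA in each cell cannot be told apart.

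**Figure D1:**
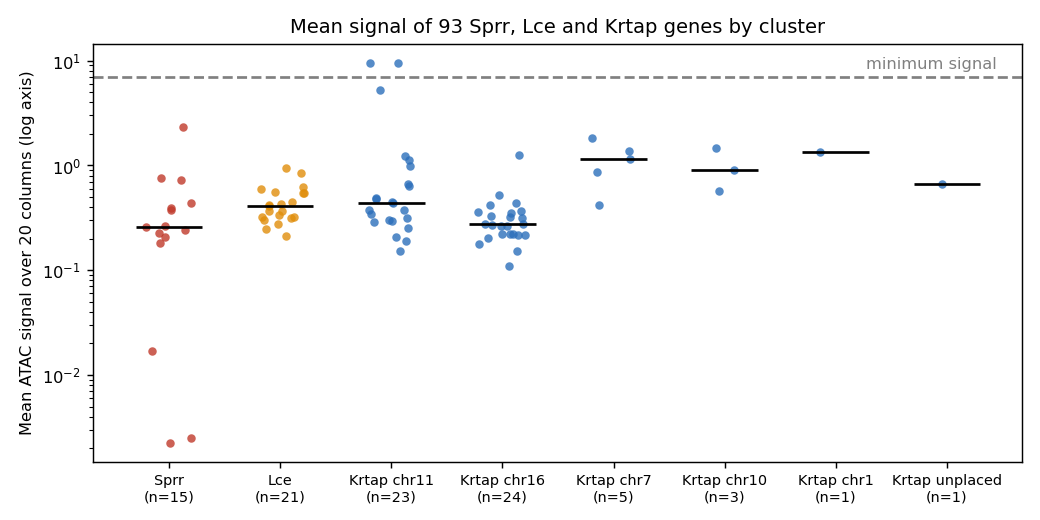
Mean ATAC signal over the 20 columns (log axis) of each gene, by cluster; each point is 1 gene, bars are medians and the dashed line is the minimum signal of 6.92. All 21 Lce genes lie under 1, and Krtap1-4 and Krtap1-5 on chromosome 11 lie above the line.

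The Sprr genes occupied chromosome 3 from 92215835 to 92500493 and had a median mean signal of 0.261. Sprr1a, which encodes an envelope precursor also known from stressed and injured cells, was highest at 2.34, followed by Sprr3 at 0.758 and Sprr2k at 0.722. Sprr2a1 and Sprr2a2 were lowest, at 0.00226 and 0.00251, near the value that 510 to 598 genes shared at the bottom of each column. These near-identical copies could share reads that an aligner does not place, so their values are uncertain. The Lce genes, from 92604821 to 93019061, had a narrower range of 0.211 to 0.937 around a median of 0.410, led by Lce3d, Lce1m and Lce1h (0.623). The Krtap genes fell into clusters on chromosome 11 (23 genes, median 0.437), 16 (24 genes, 0.275), 7 (5 genes, 1.15) and 10 (3 genes, 0.908), with Krtap28-13 on chromosome 1 and Krtap28-10 without a RefSeq position. Krtap1-5 and Krtap1-4, which encode high-sulfur hair proteins, start 2661 bases apart, and their log2 signals differed by 0.00748 on average. Over 780 pairs of genes that start under 1000 bases apart the median of that difference was 0.000159. It was 0.0807 over 98 pairs 2000 to 3000 bases apart, and 0.761 over 143 pairs 3000 to 4000 bases apart. Krtap14 and Krtap15, 2864 bases apart, differed by 1.71. Krtap1-4 and Krtap1-5 were read as 1 signal because their values were nearly the same.

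Differences between conditions were computed on log2(signal + 0.138), where the pseudocount is the 10th percentile of values above 0, and averaged over both columns. Folds are on that scale and understate changes of low genes. Under the first rule a gene was called when it differed by 2-fold or more and its higher mean reached the minimum signal. In 10 comparisons it called 1 of the 93, Krtap2-4, as higher in SKO against Flag (1.08%, against 6.18% of all genes called higher and 0.0182% lower), and few of the 93 reach its minimum. Of all genes it called 0.0592% higher and 0.127% lower in Sox2 against Flag, 0.742% and 0.141% in Klf4, 0.355% and 0.0228% under the Oct4 label, and 0.00455% and 0.0364% in Oct4-L80A. It called 0% higher and 0.769% lower in Oct4-L80A against Oct4. Against SKO it called 0.00911% higher and 0% lower in SKO-L80A and 0.00455% and 0% in SKO+shBrg1, and against SKO-L80A 0% and 0.46% with vitamin C and 0% in both directions with Gadd45a. A second rule had no minimum and asked for 2-fold or more in each column, column 1 against column 1 and column 2 against column 2, after subtracting the median difference of all genes. It pairs the columns by their number in the table, which is an assumption, since the relation of the columns is not known. Counts of genes for which both columns of one condition lay above (or below) both of the other are also given, as genes higher (or lower) in both columns, beside the same share of all genes and of the 5572 genes under 1. Sox2, Klf4, Oct4, Oct4-L80A and SKO share the 1 Flag library as control, so their differences are not independent of each other.

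Klf4 alone gave the highest values of Sprr1a and Sprr1b. It was the condition of highest mean for 11 of the 21 Lce genes, against 10.5% of all genes and 31.9% of genes under 1. Sprr1a (ENSMUSG00000050359, chromosome 3, 92483954 to 92485881) had a signal of 0.881 and 0.938 in Flag, 0.843 and 1.84 in Sox2, and 4.67 and 5.97 in Klf4. Under the Oct4 label it had 1.56 and 1.77, and in Oct4-L80A 1.25 and 1.33. In the combined conditions it had 4.42 and 2.55 for SKO, 3.48 and 1.53 for SKO+shBrg1, 3.31 and 2.48 for SKO-L80A, 1.48 and 1.13 in SKO-L80A+Vc, and 3.64 and 1.81 in SKO-L80A+Ga. Both Klf4 columns were above every other column, and both SKO columns were above those of Flag, Sox2, Oct4 and Oct4-L80A. Sprr1a was 5.17-fold higher in Klf4 than in Flag, a log2 difference of 2.37, or 2.35 relative to the median of all genes. It was the 1 of 93 genes called higher by the second rule in that comparison, where 1.75% of all genes were called higher and 0.241% lower, and 0 of the 93 were called lower. In SKO against Flag it was 3.34-fold higher, or 1.24 on the log2 scale relative to all genes, and was called by the second rule.

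Sprr1b (ENSMUSG00000048455), the nearest relative of Sprr1a, had 0.261 and 0.253 in Flag, 0.700 and 1.30 in Klf4, and 0.449 and 0.178 in SKO. Its Klf4 columns were the highest of the 20, and it was 2.78-fold higher in Klf4 than in Flag, while its SKO columns lay on both sides of those of Flag. With the median of genes under 1 subtracted in place of that of all genes, a measure added after the data were seen, the second rule called Sprr1a and Sprr1b higher in Klf4 (1.2% of all genes higher, 0.278% lower). Sprr2b had 0.285 and 0.114 in Flag, 0.460 and 0.641 in Klf4, 0.835 and 0.541 in SKO, and with the Brg1 hairpin 1.15 and 0.953. For Sprr2b the highest condition was therefore SKO+shBrg1, not Klf4, and it was 2.09-fold higher in Klf4 and 2.49-fold higher in SKO than in Flag. Sprr2k had 0.584 and 0.779 in Flag and 1.57 and 0.920 in Klf4. Under the Oct4 label it had 0.357 and 0.251, and in Oct4-L80A 0.462 and 1.04. Sprr2k was the 1 gene of the 93 called in Oct4-L80A against Oct4, as higher (1.91-fold), with 0.346% of all genes called higher and 0.319% lower. The median log2 difference of all genes was -0.40 there. Relative to genes under 1 Sprr2k lost its call, and none of the 93 was called in that comparison (0.0228% of all genes higher, 0.76% lower). The library labelled Oct4 also had high signal over Sox2 and Oct4-L80A did not, so this comparison is not of the mutation alone. Sprr3 and Sprr4 did not share the Klf4 pattern: Sprr3 had 0.897 and 0.755 in Flag and 1.13 and 0.764 in Klf4, and Sprr4 had 0.368 and 0.135 against 0.230 and 0.115.

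**Figure D2:**
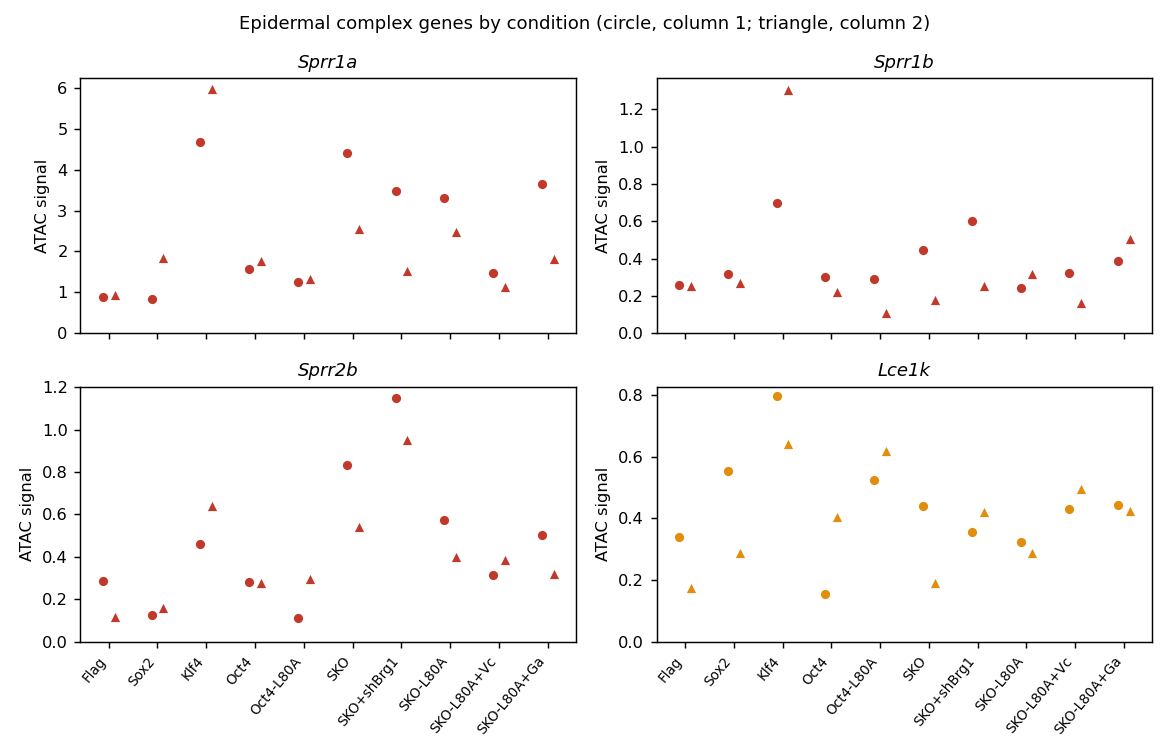
ATAC signal of Sprr1a, Sprr1b, Sprr2b and Lce1k in each of the 10 conditions; circles are column 1 and triangles column 2 of 1 library, and each panel has its own scale from 0. Both Klf4 columns are the highest for Sprr1a (4.67 and 5.97) and Lce1k (0.797 and 0.642), while Sprr2b is highest in SKO+shBrg1 (1.15 and 0.953).

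The Lce genes were higher in Klf4 as a group and by small amounts. Their median signal was 0.383 and 0.266 in the columns of Flag, 0.594 and 0.612 in Klf4, and 0.367 and 0.332 in SKO. The median log2 difference of Klf4 against Flag was 0.62 over the 21 Lce genes, 0.33 over the Sprr genes and 0.39 over the Krtap genes, against 0.03 over all genes and 0.12 over genes under 1. Both Klf4 columns lay above both Flag columns for 15 of 21 Lce genes (71.4%), against 16.1% of all genes and 28.6% of genes under 1, and they lay below for 0. The Lce1 and Lce3 subgroups were both among those genes. No Lce gene passed either rule in this comparison. Lce1k had the largest difference: it had 0.338 and 0.174 in Flag, 0.797 and 0.642 in Klf4, and 0.439 and 0.190 in SKO, and was 2.21-fold higher in Klf4. Lce1g followed with 0.387 and 0.332 in Flag and 0.781 and 0.932 in Klf4. Lce1c went the other way, with 0.561 and 0.391 in Flag and 0.212 and 0.399 in Klf4, columns that overlap. The 3 Lce genes of highest mean signal, Lce3d, Lce1m and Lce1h, had log2 differences of -0.18, -0.07 and 0.07, all below the median of the group. In SKO against Flag the Lce median was 0.07, against 0.51 over all genes and 0.00 over genes under 1. In both columns 3 of 21 Lce genes were higher and 3 lower, against 49.7% and 4.95% of all genes and 11.1% and 16.3% of genes under 1.

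Klf4 was the condition of highest mean for 28 of the 93 genes (30.1%). The share over all genes was 10.5%, and over genes under 1 it was 31.9%, so the share of the 93 was near that of other low genes. Oct4-L80A was highest for 20 of the 93 (21.5%), against 6.26% of all genes and 22.9% of genes under 1. The median of genes under 1 was 0.250 and 0.148 in Flag, 0.270 and 0.235 in Klf4, and 0.324 and 0.218 in Oct4-L80A, while that of all genes was 4.45 and 7.55, 5.51 and 7.27, and 3.38 and 7.39. A column with a lower median over all genes thus had a higher median over low genes in these 3 conditions. The part of this difference between columns in the values of the 93 genes was not tested.

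The other genes of the epidermal differentiation complex were set beside the Sprr and Lce genes. Between the outermost S100a genes the table held 68 genes: the 36 Sprr and Lce genes, 14 S100a genes and 18 others. In Klf4 against Flag the Sprr and Lce genes had a median of 0.47 with 22 of 36 higher in both columns and 0 lower. The 18 others had 0.64 with 10 higher and 0 lower, and the S100a genes had 0.07 with 3 higher and 1 lower. In SKO against Flag the order differed. The median was 0.05 for the Sprr and Lce genes (5 higher and 4 lower), 0.39 for the others (9 and 3) and 0.64 for the S100a genes (9 and 1). There 49.7% of all genes were higher in both columns and 4.95% lower. Genes under 1, which include all 21 Lce and 14 of 15 Sprr genes, had a median of -0.004, with 11.1% higher and 16.3% lower. In Klf4 the shares were 16.1% and 6.72% of all genes, and 28.6% and 7.05% of genes under 1. The S100a genes, which encode calcium-binding proteins and several of which are active outside the skin, have higher signal in these cells, with a median mean of 6.15. The first rule called 3 of the 14 S100a genes higher in SKO against Flag, S100a1, S100a13 and S100a16, where it called 6.18% of all genes higher, and 0 in Klf4. S100a1 and S100a13 had nearly the same signal, with means of 5.816 and 5.817.

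**Figure D3:**
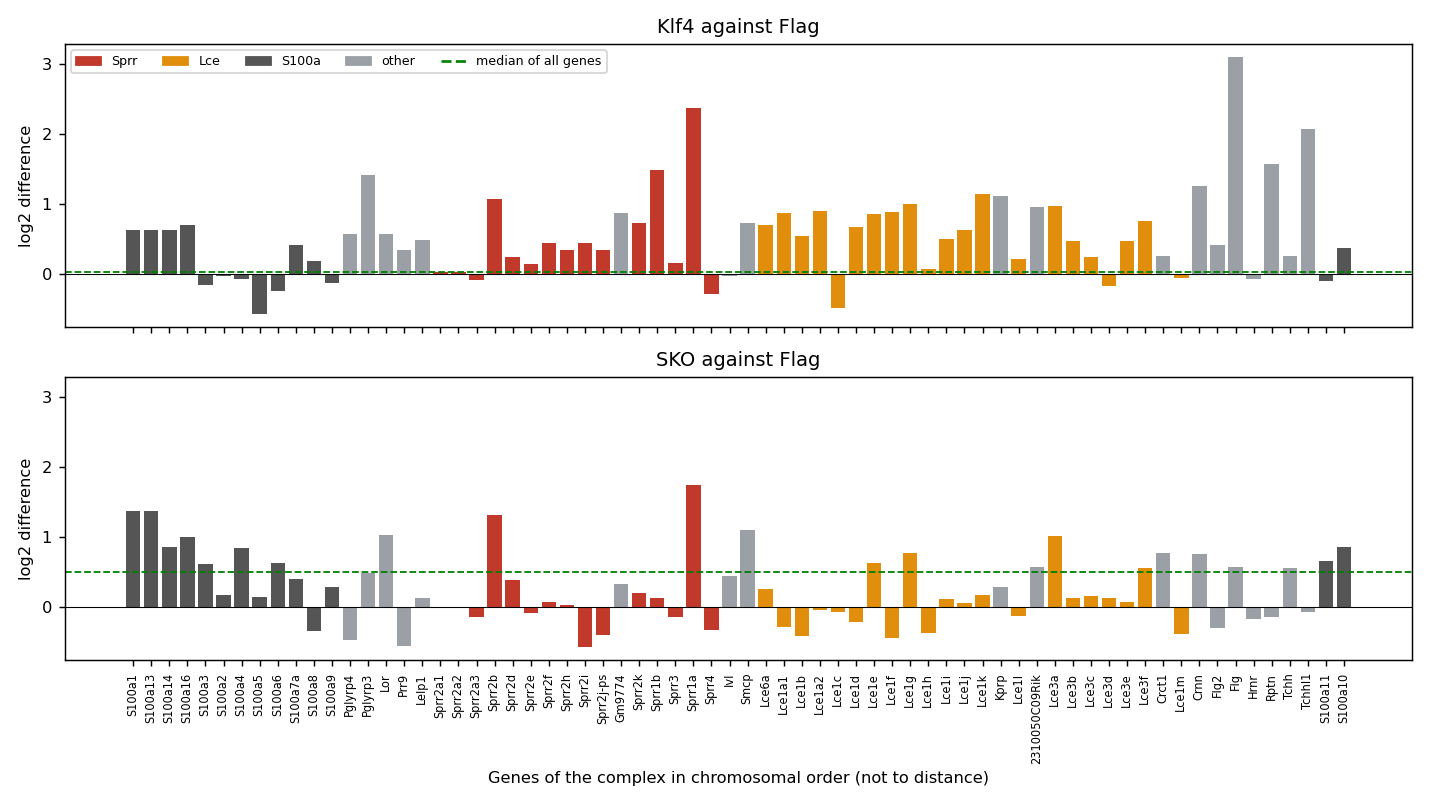
The log2 difference from Flag of the 68 genes of the epidermal differentiation complex, in chromosomal order, in Klf4 (top) and SKO (bottom); bars are single genes and the dashed line is the median of all genes. In Klf4 the tall bars are Flg, Sprr1a and Tchhl1, and in SKO most Sprr and Lce bars lie below the line at 0.51 while S100a1 and S100a13 lie above it.

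Of 25 other genes of the cornified envelope, the first rule called 2 higher in Klf4 and 0 lower, where it called 0.742% of all genes higher, and the median log2 difference of the 25 was 0.41 against 0.03 over all genes. These were Evpl, which encodes the desmosome-linked scaffold envoplakin (1.43 and 1.54 in Flag, 7.74 and 10.7 in Klf4, 5.69-fold), and Sbsn, suprabasin (2.29 and 4.12, then 7.41 and 8.04, 2.45-fold). The second rule called these and 3 more, where it called 1.75% of all genes higher. Flg, which encodes the filament-aggregating protein filaggrin, had 0.242 and 0.157 in Flag, 2.79 and 2.69 in Klf4, and 0.444 and 0.284 in SKO, and was 8.58-fold higher in Klf4. Tchhl1 was 4.20-fold and Rptn, repetin, 2.96-fold higher in Klf4. All 3 lie in the complex beside the Lce genes, and for none of them was the SKO value 2-fold above Flag. In SKO against Flag the median of the 25 was 0.45, against 0.51 over all genes, and the first rule called 3 higher: Evpl (4.45-fold), Cdsn, corneodesmosin (3.17-fold), and Lor, loricrin (2.03-fold). The second rule called Evpl, Cdsn and Tgm1, a transglutaminase of the envelope (3.85-fold), higher and Abca12 and Casp14 lower, where the first rule called 6.18% of all genes higher and the second 1.44% higher and 0.71% lower. Ivl, involucrin, had 0.501 and 0.815 in Flag, 0.439 and 0.877 in Klf4, and 0.836 and 1.02 in SKO.

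Among 21 transcription factor genes of the upper epidermis and the hair, Klf4 itself was the 1 called, at 10.3-fold in Klf4 and 4.78-fold in SKO against Flag. Its signal was 12.6 and 17.8 in Flag, 166 and 146 in the Klf4 library, and 78.5 and 66.6 in SKO. The other 20, Trp63, Grhl3 and Zfp750 among them, were not called by either rule in those comparisons, and the median of the 21 was 0.16 in Klf4 and 0.52 in SKO. Trp63, the master regulator of stratified epithelia, had 0.474 and 0.305 in Flag and 0.482 and 0.287 in Klf4. Krt5, the keratin of basal keratinocytes, had 0.965 and 1.08 in Flag and 1.45 and 2.32 in Klf4. The 6 basal keratinocyte markers summed to 10.4 and 17.2 in Flag, 17.8 and 21.9 in Klf4, and 27.7 and 25.8 in SKO. Their median log2 difference from Flag was 0.69 in Klf4 and 0.93 in SKO, against 0.03 and 0.51 over all genes. The second rule called 1 of the 6, Dsg3, higher in both, where it called 1.75% and 1.44% of all genes higher. The 6 markers of the upper epidermis, which include Ivl and Lor, summed to 10.4 and 21.4 in Flag, 14.4 and 24.8 in Klf4, and 29.4 and 27.0 in SKO. In the same order the 6 hair follicle markers had 9.77 and 14.2, 7.49 and 11.4, and 16.2 and 14.7. The 11 fibroblast markers had 94.4 and 146, 90.5 and 116, and 171 and 139. All genes summed to 155164 and 248919, 168039 and 213144, and 334696 and 266029. The part of other cell types in the Sprr and Lce values was not tested.

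The Krtap genes with the most signal, Krtap1-4, Krtap1-5 and Krtap2-4, were higher in SKO than in Flag, and Krtap2-4 was called. Krtap2-4 (ENSMUSG00000060756, chromosome 11, 99614017 to 99614846) had 2.63 and 2.01 in Flag, 4.62 and 3.59 in Sox2, 3.07 and 4.52 in Klf4, and 4.02 and 4.66 under the Oct4 label. It had 1.39 and 3.10 in Oct4-L80A, 9.50 and 5.56 in SKO, 11.8 and 5.34 with the Brg1 hairpin, and 8.35 and 7.66 in SKO-L80A. With vitamin C it had 5.46 and 3.61, and with Gadd45a 8.81 and 5.76. Every column of SKO, SKO+shBrg1 and SKO-L80A was above every column of the 5 conditions labelled as single viruses. Of these, the library labelled Oct4 also had high signal over Sox2. Krtap2-4 was 3.04-fold higher in SKO than in Flag, a log2 difference of 1.60, or 1.10 relative to all genes. With quantile normalisation the difference was 0.84, under 2-fold, and with column 2 alone the gene no longer reached the minimum signal.

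Krtap1-5 (ENSMUSG00000047253), the highest gene of the clusters, had 7.87 and 9.27 in Flag, 8.41 and 10.3 in Sox2, 9.14 and 7.89 in Klf4, 9.52 and 9.02 under the Oct4 label, and 3.71 and 7.74 in Oct4-L80A. It had 15.4 and 10.8 in SKO, 15.5 and 9.31 with the Brg1 hairpin, 12.5 and 11.8 in SKO-L80A, 8.40 and 4.51 with vitamin C, and 11.9 and 7.19 with Gadd45a. Sox2, Klf4 and the library labelled Oct4 overlapped Flag, both SKO columns were above Flag, and both Oct4-L80A columns were below it. No call was made for Krtap1-5, and the column medians of all genes were also higher in SKO (10.6 and 8.89) than in Flag (4.45 and 7.55). Krtap5-5, in the ultra-high-sulfur cluster on chromosome 7, had 1.06 and 1.28 in Flag, 1.64 and 1.96 in Klf4, 1.04 and 1.04 under the Oct4 label, and 2.67 and 2.23 in SKO. It was 1.98-fold higher in SKO than in Flag, without overlap, and neither rule called it. In that comparison 49.7% of all genes were higher in both columns, and the median log2 difference of all genes was 0.51. Krtap9-1 had 0.170 and 0.0781 in Flag, 0.552 and 0.327 in Oct4-L80A, and 1.15 and 0.465 in SKO. It was 3.42-fold higher in SKO and 2.19-fold higher in Oct4-L80A than in Flag, and was called higher by the second rule in both. In SKO against Flag that rule called 2 of the 93 genes higher, Sprr1a and Krtap9-1 (1.44% of all genes), and 1 lower, Krtap6-3 (0.71%). Relative to genes under 1 it called 4 higher, Sprr2b, Sprr1a, Krtap2-4 and Krtap9-1 (4.3%, against 2.66% of all genes), and 0 lower (0.127%), so Krtap6-3 lost its call. In Oct4-L80A against Flag it called 1, Krtap9-1 (0.291% of all genes called higher, 0.0455% lower). Relative to genes under 1 none of the 93 was called there (0.0637% of all genes higher, 0.228% lower).

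**Figure D4:**
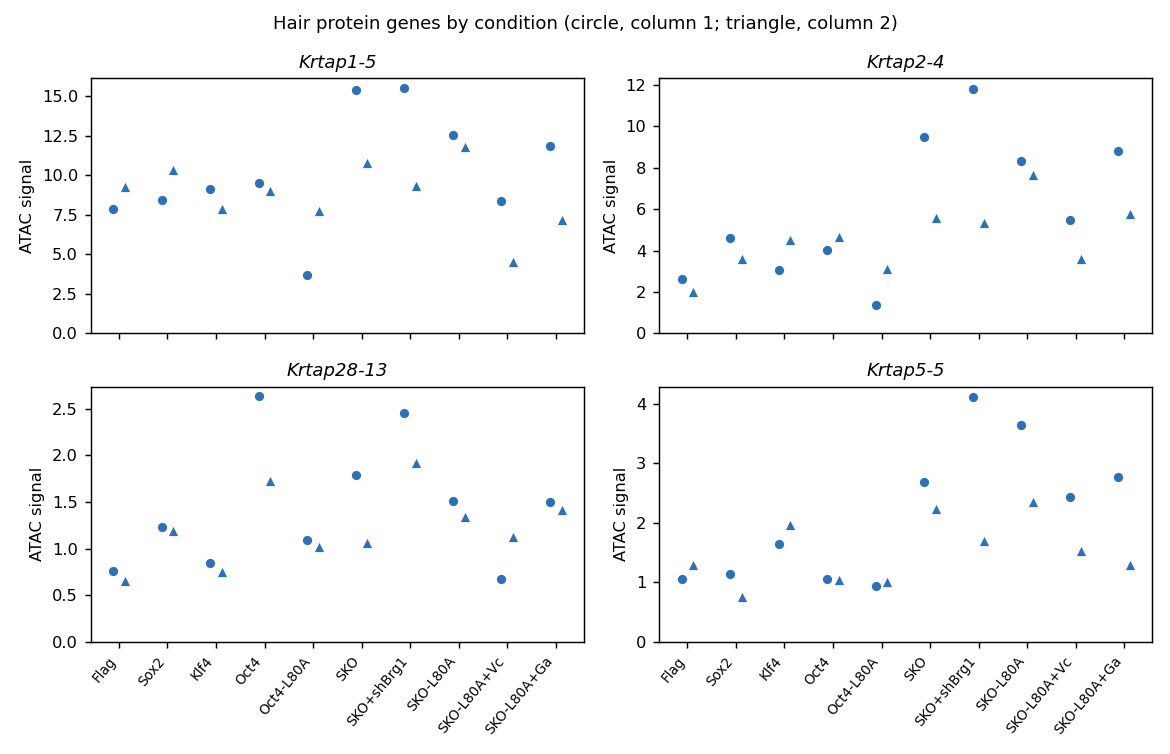
ATAC signal of Krtap1-5, Krtap2-4, Krtap28-13 and Krtap5-5 in each of the 10 conditions; circles are column 1 and triangles column 2 of 1 library, and each panel has its own scale from 0. Krtap2-4 lies between 1.39 and 4.66 in the 5 conditions labelled as single viruses and between 3.61 and 11.8 in the combined conditions. Krtap28-13 is highest in column 1 of the library labelled Oct4 (2.64).

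Krtap28-13 (chromosome 1, 83060930 to 83061921) had 0.760 and 0.650 in Flag, 1.23 and 1.19 in Sox2, 0.841 and 0.747 in Klf4, 2.64 and 1.73 under the Oct4 label, and 1.09 and 1.01 in Oct4-L80A. In SKO it had 1.79 and 1.06, and with the Brg1 hairpin 2.45 and 1.92. The library labelled Oct4 and SKO+shBrg1 were the highest conditions, and their columns overlapped. Krtap28-13 was 2.71-fold higher in the library labelled Oct4 than in Flag and was called by the second rule (0.501% of all genes called higher). Relative to genes under 1 it was also called (0.646%). In the same comparison Krtap6-3, in the glycine- and tyrosine-rich cluster on chromosome 16, was called lower (0.319% of all genes), with 0.519 and 0.701 in Flag and 0.265 and 0.202 in the library labelled Oct4. Relative to genes under 1 it was not called (0.118% of all genes lower). Krtap6-3 in Flag was higher than in any other library, and every comparison in which it was called shares that library.

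By cluster, the chromosome 11 Krtap genes were higher in Sox2. Their median log2 difference from Flag was 0.52, against -0.09 over all genes and 0.10 over genes under 1. Both Sox2 columns lay above both Flag columns for 12 of 23 (52.2%) and below for 0, where 7.63% of all genes and 21.3% of genes under 1 were higher, and 5.32% of all genes lower. Krtap4-1, for example, had 0.443 and 0.425 in Flag and 0.856 and 1.07 in Sox2. None of the 93 genes passed either rule in Sox2 against Flag, where the second rule called 0.633% of all genes higher and 0.191% lower. The same cluster was higher in both columns of the library labelled Oct4 for 8 of 23 genes and lower for 0 (16.9% of all genes and 12.8% of genes under 1 were higher, and 5.21% of all genes lower), with a median of 0.27. In Oct4-L80A 10 of the 23 genes were higher and 2 lower, with a median of 0.24. There 7.82% of all genes and 25.9% of genes under 1 were higher, and 3.09% and 4.41% lower. In SKO 8 of the 23 were higher and 1 lower, with a median of -0.01. The shares in SKO were 49.7% higher and 4.95% lower over all genes, and 11.1% and 16.3% over genes under 1. In Klf4 the cluster had 7 genes higher and 6 lower. The chromosome 16 cluster had 13 of 24 genes higher and 2 lower in Klf4, with a median of 0.44. The shares in Klf4 were 16.1% higher and 6.72% lower over all genes, and 28.6% and 7.05% over genes under 1. Among 15 hair keratin genes, whose filaments the Krtap proteins embed, the first rule called 0 in every comparison with Flag. The second rule called 1, Krt34, higher in Sox2 (2.31-fold) and Klf4 (2.81-fold). It called 0.633% of all genes higher in Sox2 and 1.75% in Klf4. The median of the 15 was 0.27 in Sox2 and 0.30 in Klf4. The hair keratin genes that flank the chromosome 11 cluster had log2 differences in Sox2 of 0.66 (Krt39), 0.33 (Krt40), 0.80 (Krt33a), 0.67 (Krt33b), 1.21 (Krt34), 0.82 (Krt31), 0.72 (Krt32) and 0.20 (Krt35), a range that holds the cluster's median of 0.52.

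**Figure D5:**
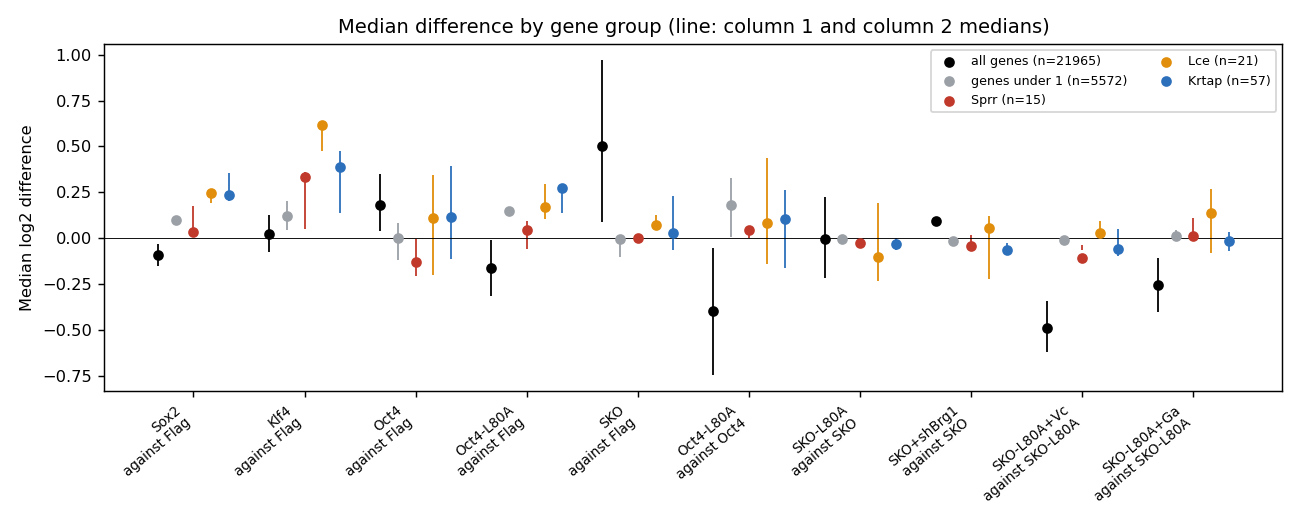
Median log2 difference (y axis) in the 10 comparisons (x axis) for all 21965 genes, the 5572 genes under 1, and the Sprr, Lce and Krtap genes; points use the mean of both columns and lines join the medians of each column alone. The Lce median stands at 0.62 in Klf4 against Flag. In SKO against Flag the medians of the 3 families lie near 0, as does that of genes under 1 (-0.004), while that of all genes is 0.51.

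In the combined setting neither rule called any of the 93 genes with the mutant, the hairpin against Brg1 or Gadd45a. In SKO-L80A against SKO the medians of the 3 families were -0.03, -0.10 and -0.03 for Sprr, Lce and Krtap, against 0.00 for all genes and for genes under 1. In both columns 9 of the 93 were higher and 14 lower, against 5.73% and 5.7% of all genes and 11.1% and 12.9% of genes under 1. In SKO+shBrg1 against SKO the medians were -0.04, 0.05 and -0.06, against 0.09 over all genes and -0.01 over genes under 1. In both columns 7 of the 93 were higher and 15 lower, against 11.2% and 5.57% of all genes and 8.74% and 17.2% of genes under 1. The second rule called 0.0228% of all genes higher and 0.00911% lower in SKO-L80A, and 0.00455% higher and 0.0228% lower in SKO+shBrg1. In SKO-L80A+Ga against SKO-L80A the medians were 0.01, 0.14 and -0.01 against -0.26 for all genes and 0.01 for genes under 1, with 0.0364% of all genes called higher and 0% lower by the second rule. In both columns 7 of 15 Sprr genes were higher and 0 lower, 6 of 21 Lce genes were higher and 3 lower, and 9 of 57 Krtap genes were higher and 5 lower. The 7 Sprr genes include Sprr2a1 and Sprr2a2, whose values lie near the bottom of each column and are uncertain. The shares were 5.23% higher and 47.2% lower over all genes, and 18.1% and 9.13% over genes under 1.

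Vitamin C gave the most calls by the second rule. In SKO-L80A+Vc against SKO-L80A the rule called 4 of the 93 genes higher (4.3%), against 0.756% of all genes and 2.75% of genes under 1, and 0 lower (0.0728% of all genes). These were Lce3e, Krtap4-6, Krtap9-5 and Krtap19-5. Krtap4-6 had 0.235 and 0.250 in SKO-L80A and 0.754 and 0.645 with vitamin C. Krtap9-5 had 0.157 and 0.252, then 0.370 and 0.447. Lce3e had 0.214 and 0.220, then 0.421 and 0.341, and Krtap19-5 had 0.109 and 0.163, then 0.257 and 0.272. The median log2 difference was -0.49 over all genes and -0.01 over genes under 1, so the second rule places a gene of unchanged signal at 0.49. Relative to genes under 1, Krtap4-6 stayed called higher (0.0455% of all genes) and Sprr1a was called lower (0.656% of all genes), with 3.31 and 2.48 in SKO-L80A and 1.48 and 1.13 with vitamin C. Both vitamin C columns lay below both SKO-L80A columns for 7 of 15 Sprr genes, 3 of 21 Lce genes and 12 of 57 Krtap genes, where 69.7% of all genes and 25.8% of genes under 1 were lower. They lay above for 3 Sprr, 4 Lce and 12 Krtap genes, where 4.79% of all genes and 17.0% of genes under 1 were higher. The 7 Sprr genes that were lower include Sprr2a1 and Sprr2a2, whose values lie near the bottom of each column. Krtap1-5, at the level of most genes in the table, had a log2 difference of -0.97.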

How the data were processed

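ATAC-seq signal per gene was taken from a table that the authors deposited, with 2 columns for each of 10 conditions. Per the submitters' processing notes the build was mm10, and the tools named are bedtools 2.25.0, Bowtie2 2.2.5, cutadapt 1.13, deepTools, DESeq2 1.22.2, MACS2 2.1.0, Picard, SAMtools 1.3.1 and Trimmomatic 0.35. The sources used here give neither the step each served nor the window per gene or the scaling. Depth is unknown, because the values do not fall in steps of 1 read, so no counting interval was computed. How the columns of a condition relate is likewise not given there, and they were counted as 1 replicate.

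All differences were computed over the 21965 genes with Python 3.11.15, numpy 2.4.6 and pandas 2.3.3, and the procedure was tested on simulated data. The genes and lists were chosen with earlier results of these data known. The rule for named genes took every gene past the first rule, up to 3 per direction past the second, the 3 of highest mean per family, and genes above the minimum signal. Sprr1b, Sprr2b, Sprr4, Lce1k, Lce1g, Lce1c, Krtap5-5, Krtap4-1, Sprr2a1, Sprr2a2 and partner and flanking keratin genes were named after their values were seen, as were the motif positions. Counts of columns that do not overlap were added after the data were seen. Positions and promoters are from RefSeq GRCm38.p6, in which 92 of the 93 symbols matched.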

Additional observations from a re-analysis of the deposited data

Results flagged for a closer look

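For Krtap9-5, a high-sulfur hair protein gene on chromosome 11, the values of the mutant against Oct4 had opposite signs in the 2 settings. The log2 difference of Oct4-L80A against Oct4 was 0.889, with each column higher than its counterpart, and that of SKO-L80A against SKO was -0.069, with each column lower. The columns of SKO and SKO-L80A overlapped, so the second value shows no direction. The library labelled Oct4 also had a signal of 62.9 and 55.2 over Sox2, against 2.4 and 5.5 in Oct4-L80A. The first value is therefore not of the mutation alone. Each condition has 1 library, and the difference between the settings was not tested.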

How the results depend on the processing

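The counts of the first rule rested on the minimum signal. With no minimum the counts of the 93 genes called higher were 1 in Sox2, 5 in Klf4, 4 in the library labelled Oct4, 3 in Oct4-L80A and 7 in SKO against Flag, 1 in SKO-L80A against SKO and 1 with vitamin C. The counts called lower were then 1 in the library labelled Oct4 against Flag, 2 in Oct4-L80A against Oct4 and 1 with vitamin C. Column 1 alone gave 2 lower in Oct4-L80A against Flag and 2 lower against Oct4. Column 2 alone gave 0 higher in SKO against Flag and 3 lower with vitamin C, and quantile normalisation gave 0 higher in SKO. The shares of all genes called under these settings are not given here. The counts therefore show how the rule depends on its settings, and not how the 93 genes compare with other genes. For 12 differences of named genes, the 8 alternative settings gave 96 values, of which 0 were reversed. Each of the 12 was a difference for which a rule had called the gene, so the selection made a reversal unlikely. The setting without a minimum cannot change a difference. The absence of reversals is therefore no support for these differences. A pseudocount 4 times larger moved 8 of the 12 by more than the spread of the columns, one 4 times smaller 5, and subtracting the median of all genes 6: Krtap9-1 in SKO against Flag was 1.77 as reported, 0.96 with a pseudocount 4 times larger and 2.34 with one 4 times smaller. No replicate could be left out, because each condition has 1 library. No paired analysis was possible because the conditions have 1 library each and the columns carry no known pairing, which the second rule assumes by number. Differences under the spread between the 2 columns of a condition were not detectable, and the depth that limits them is unknown.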
